A study of Rattus norvegicus with 9 samples.

Results

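The genes described here encode collagen chains, laminin chains and the basement membrane or matrix proteins agrin, nidogen-1, nidogen-2 and fibronectin. They were followed in primary rat cortical neuron cultures that had been left unstimulated or had received direct or alternating current. Members were chosen by gene symbol, as any Col or Lam chain name or as Agrn, Hspg2, Nid1, Nid2 or Fn1, and by an average of at least 10 estimated counts over the 9 libraries. Of 32623 gene entries, 56 had a symbol of this form, 51 reached that average, and all 51 were among the 16284 genes tested. Closest above the minimum lay Col22a1 with an average count of 10.1, Col7a1 with 15.3 and Lamb3 with 17.7. Closest below it lay Col28a1 with 9.22 and Col10a1 with 7.89, followed by Col17a1, Lamc3 and Col13a1 with 2 counts or fewer. Hspg2 (perlecan), Col1a2, Col6a3 and Lama3 are not among the members, because no entry used here carried those symbols. Entries under other symbols were described as the last 3 of these and are given only as counts beside their families.

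All 9 libraries came from cortical neurons of Wistar rat embryos taken at embryonic day 16 to 18 and grown on poly-L-lysine in Neurobasal medium with B27-A and GlutaMAX. Each group had 3 libraries. Control cultures carried no stimulation label. The direct current stimulation (DCS) and alternating current stimulation (ACS) groups were labelled with the same setting, a current of 3 μA at 20 Hz, given for 20 min daily during 7 days. The study's text sets a frequency for ACS alone, although DCS carries the same label. The sample labels give the age of all cultures as 7 days in vitro and the growth protocol as 14, and the age at collection is therefore uncertain. No transgene, mutation or drug was labelled in any group. The comparisons asked how gene expression differed after DCS or ACS and between the forms of current.

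Collagens are triple helices built from alpha chains. Collagen IV forms the network of basement membranes, fibrillar collagens form the fibrils of interstitial matrix, and FACIT collagens sit on the surface of those fibrils. Laminins are cross-shaped trimers of an alpha, a beta and a gamma chain, nidogens link them to collagen IV, and cells bind them through integrins and dystroglycan. Agrin is a heparan sulfate proteoglycan that neurons make, best known for clustering acetylcholine receptors at the neuromuscular junction. In the brain, basement membranes lie around vessels and under the meninges, and neurons and glia also make matrix proteins.

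The estimated counts summed to between 49039412 and 68690760 per library, with the ACS libraries at 49039412 to 52938628 and the control libraries at 53910745 to 68690760. Pearson's r of log2(FPKM + 1) between libraries was 0.991 to 0.995. Whether libraries of 1 group are separate cultures is not labelled. The p-values therefore measure only the spread among these libraries, and part of that spread may be technical. Levels between genes are given as FPKM, which is per transcript length, and differences between libraries of a single gene as CPM, counts relative to the library total scaled by the trimmed mean of M-values (TMM).

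The cultures were checked against marker lists by summed FPKM. Neuron markers, a list of general neuronal genes and excitatory ones, summed to 1484 to 1719 FPKM. The general markers Tubb3 and Map2 were among the most abundant of them. Glial markers were also present, with 227 to 308 FPKM for astrocytes (led by Slc1a3, Gfap and Aldoc), 187 to 218 for the oligodendrocyte lineage (Olig1, Olig2 and Mbp), 50.1 to 57.0 for microglia (Csf1r, Aif1 and Itgam) and 249 to 305 for progenitors (Vim, Sox2 and Top2a). Markers of vascular and meningeal cells, which make much of the basement membrane in the brain, were low. Endothelial markers summed to 0.426 to 1.72 FPKM over 8 entries, with no marker of the list above 0.677 FPKM in any library. Mural markers summed to 11.4 to 17.8 FPKM, mostly from Tagln and Notch3, while Rgs5 was at 0 in all 9 libraries. Meningeal and perivascular fibroblast markers summed to 9.93 to 17.2 FPKM, mostly from Mgp and Islr. In bulk RNA, fewer cells of a type and less RNA per cell cannot be told apart.

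Agrn was the most abundant member and took 30.1% to 37.8% of the summed member FPKM. Its mean over all 9 libraries was 65.5 FPKM, ahead of 28.4 FPKM for Nid1 and 14.8 FPKM for Fn1. Lamc1 followed with 10.5 FPKM, Col4a2 with 10.02 FPKM and Col4a1 with 9.49 FPKM. Lamb1 with 6.17 FPKM and Lamb2 with 5.89 FPKM overlapped in their library values, as did Col4a2 and Col4a1. Lama5 was the highest alpha laminin at 2.39 FPKM, against 1.13 FPKM for Lama4, 0.309 FPKM for Lama1 and 0.194 FPKM for Lama2. By level, the most expressed laminin chains were thus one gamma chain, a pair of beta chains and Lama5. Col16a1, a FACIT collagen, had 4.55 FPKM and Col5a2, a fibrillar chain, 4.29 FPKM. Of the 51 members, 5 averaged at least 10 FPKM, 17 between 1 and 10, 21 between 0.1 and 1, and 8 under 0.1 FPKM. The 8 lowest were Col7a1, Col22a1, Col4a3, Col6a5, Lamb3, Col8a2, Col6a4 and Col8a1, and 4 members had a library with a count of 0.

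**Figure D1:**
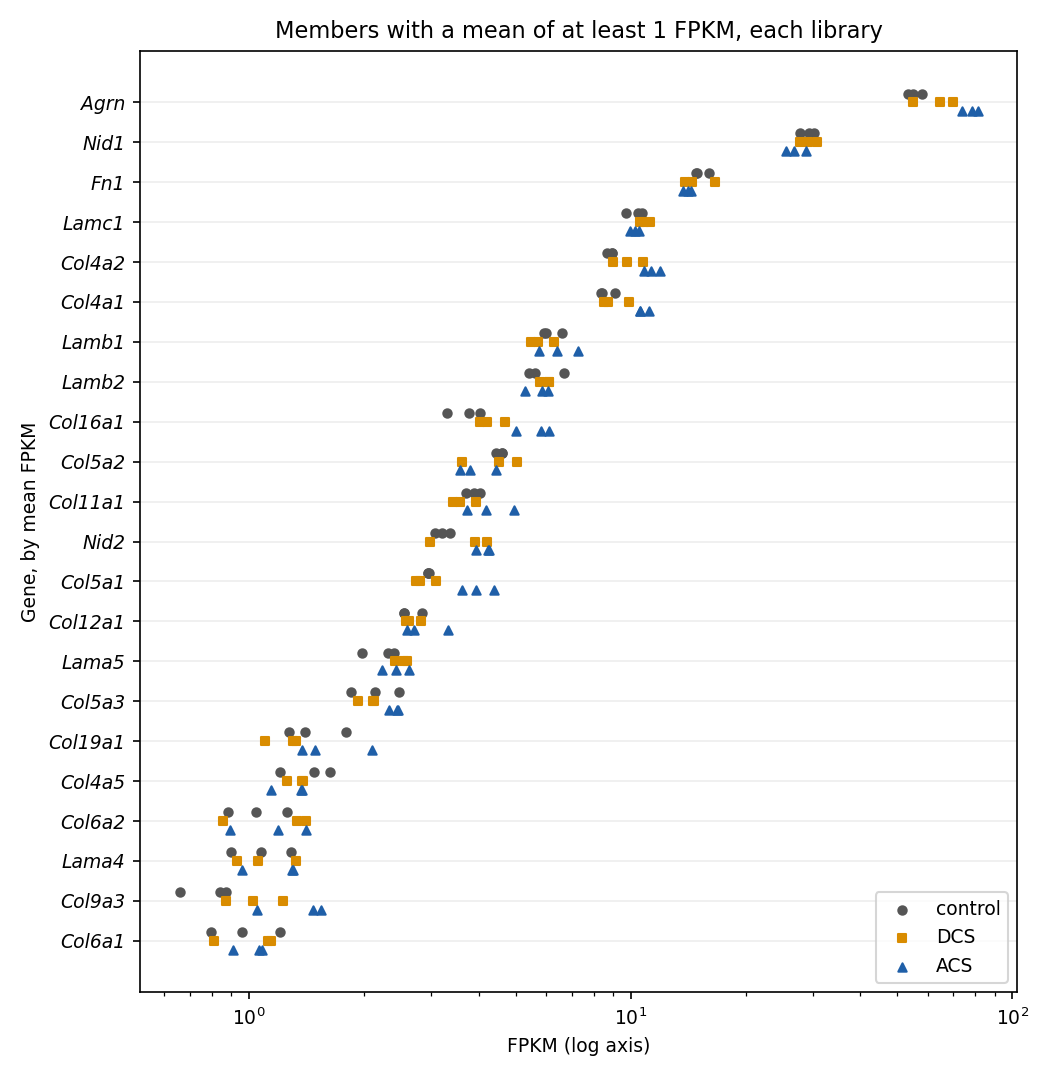
FPKM of each library (log axis) for the 22 members with a mean of at least 1 FPKM, ordered by mean, with circles for control, squares for DCS and triangles for ACS. Agrn stands above every other member in every library, and its 3 ACS libraries lie to the right of its control libraries.

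After ACS, 6 of the 51 members were higher than control and 0 were lower at an adjusted p under 0.05 by edgeR's quasi-likelihood test with Benjamini-Hochberg adjustment over all genes. They were Agrn, Col16a1, Col5a1, Col4a1, Col4a2 and Col11a2. The members' share was 11.8%, beside 4.16% of all tested genes called in either direction and 2.83% called higher. DESeq2 called 8 members, these 6 with Nid2 and Col9a3, beside 12% of the genes that it gave an adjusted p. It gave none to some genes, among them the members Col20a1, Col24a1 and Col15a1 in this comparison. Limma was fitted on log2(FPKM + 1) or log2(FPKM + 0.1), with 43 members tested. With either it called 3, Agrn, Col16a1 and Col4a2, beside 3.22% and 3.19% of all genes. Calls were more frequent among well-counted genes in general. With an average of at least 1000 counts, a cutoff chosen after the values were seen, 5 of 14 members were called, beside 6.44% of all genes of that depth. At an unadjusted p under 0.05, 13 members were higher and 1, Col4a6, was lower, beside 10.8% and 10% of all genes. The control and ACS libraries did not overlap for 16 members, 14 of them higher after ACS, beside 27.1% of all genes in either direction and 14% higher. The median log2 fold change was 0.15 over the members and -0.003 over all tested genes, and 32 of 51 members lay above 0, beside 49.5% of all genes.

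Member transcripts together made up 0.121% to 0.126% of all counts in control libraries, 0.127% to 0.137% in DCS libraries and 0.145% to 0.15% in ACS libraries. The ACS shares lay above all 6 others, and the DCS shares above the control shares. In summed FPKM the members gave 177 to 182 in control, 183 to 197 in DCS and 207 to 215 in ACS. Agrn alone averaged 55.4 FPKM in control, 63.2 in DCS and 77.8 in ACS, and so carried most of the difference in these sums. The laminin beta chains, by contrast, summed to 11.5 to 13.4 FPKM in control, 11.3 to 12.5 in DCS and 11.7 to 12.6 in ACS.

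**Figure D2:**
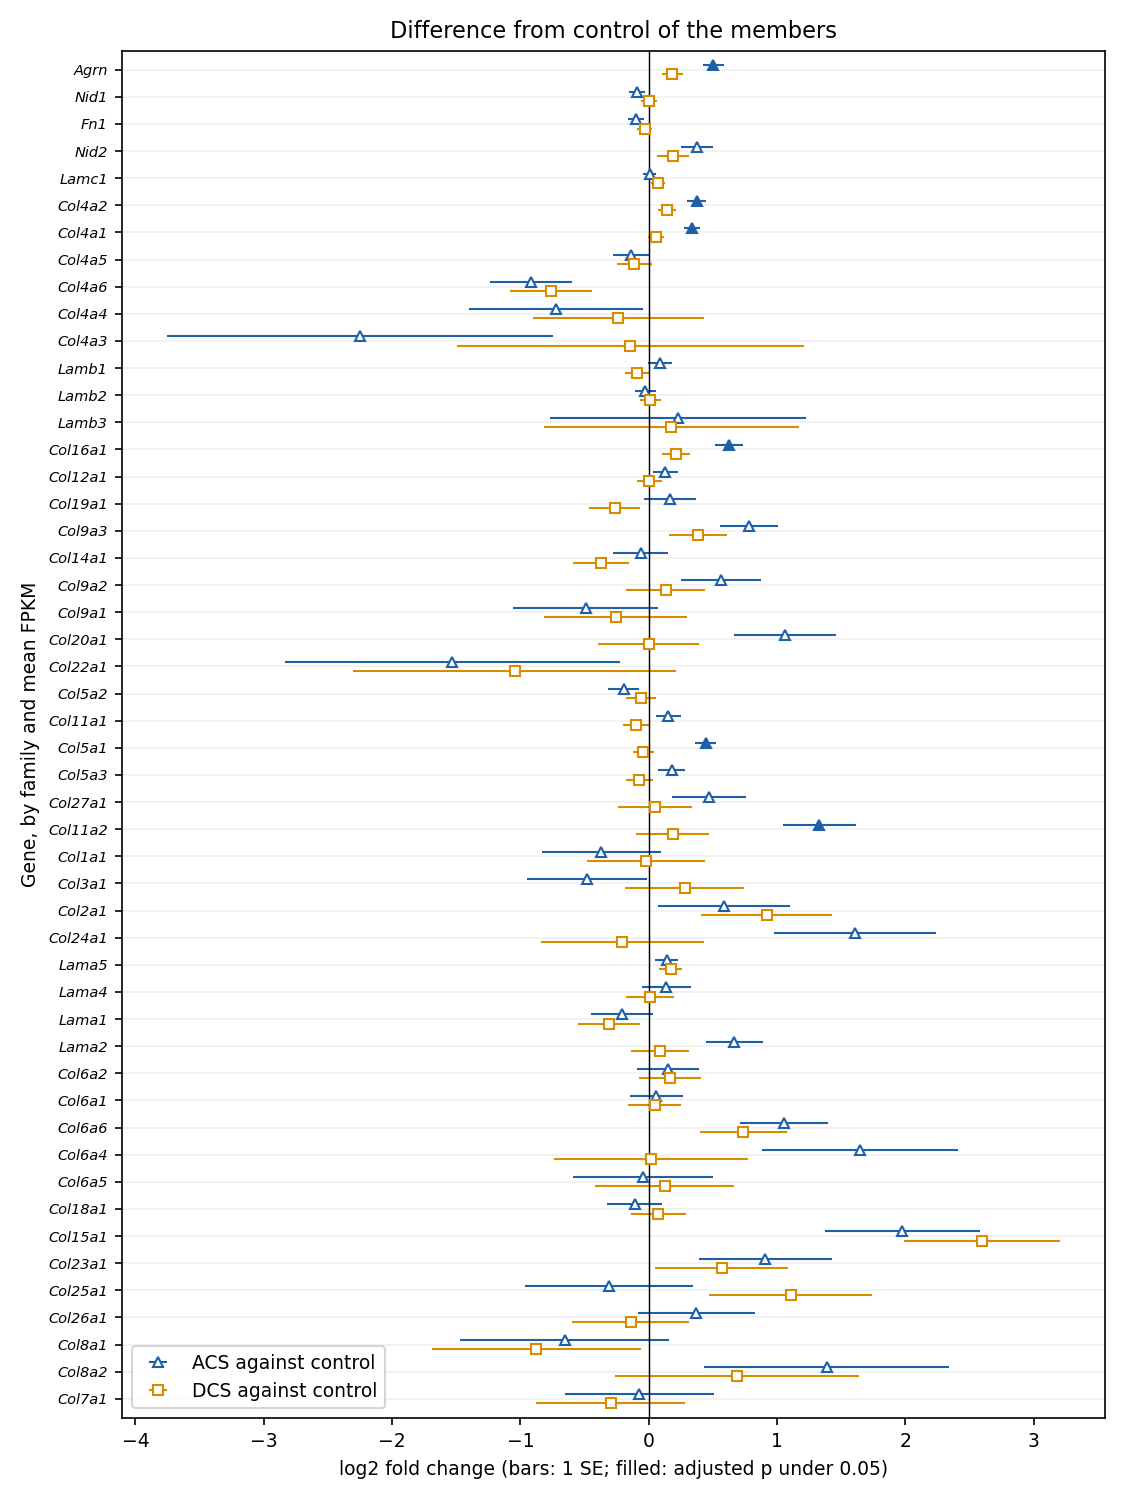
Fitted log2 fold change of the members against control (1 of the 51 is not drawn), with bars of 1 SE, for ACS (triangles) and DCS (squares); filled symbols passed an adjusted p of 0.05. The 6 filled symbols are all ACS values above 0, and wide bars belong to members with few counts.

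Agrn measured 434, 446 and 464 CPM in control libraries 1, 2 and 3, 567, 521 and 437 CPM in the DCS libraries and 644, 660 and 602 CPM in the ACS libraries. The ACS libraries lay above all others, DCS libraries 1 and 2 above the controls, and DCS library 3 within the control range. The means were 448 ± 14.8 CPM (SD, n = 3) for control and 636 ± 29.8 CPM (SD, n = 3) for ACS. Its log2 fold change after ACS was 0.50 (SE 0.08, adjusted p = 0.0117). The call was lost in some fits that left out 1 library, and such fits also rest on fewer libraries. The adjusted p was 0.0573 and 0.0619 without control libraries 1 and 2, and 0.0522 and 0.0587 without ACS libraries 1 and 2. Over the 9 such fits the log2 fold change was 0.48 to 0.54.

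Col4a1 and Col4a2 encode the chains of the common collagen IV trimer of basement membranes. Col4a1 had 57.7, 62.3 and 56.5 CPM in the control group, 58.1, 59.1 and 66.1 CPM in the DCS group and 73.4, 72.7 and 76.6 CPM in the ACS group. All ACS libraries exceeded the other 6, and the control and DCS libraries overlapped. Col4a2 had 44.8, 45.8 and 45.3 CPM in the control group, 55.2, 49.8 and 45.2 CPM in the DCS group and 62.1, 55.7 and 58.5 CPM in the ACS group. Again the ACS libraries were the highest, here with DCS library 1 just under them and DCS library 3 among the controls. After ACS the log2 fold change was 0.34 (SE 0.06, adjusted p = 0.0202) for Col4a1 and 0.38 (SE 0.07, adjusted p = 0.025) for Col4a2. Without control library 1, ACS library 1, 2 or 3, the adjusted p of Col4a1 was 0.0948, 0.0753, 0.0678 and 0.0674. For Col4a2 it was 0.0989 and 0.0946 without control libraries 1 and 2, and 0.097, 0.0584 and 0.063 without ACS libraries 1, 2 and 3. The other collagen IV chains gave different values: Col4a5 had a log2 fold change of -0.14 (SE 0.14, adjusted p = 0.625) and Col4a6 one of -0.92 (SE 0.32, adjusted p = 0.139). Summed over 6 chains, collagen IV gave 19.2 to 20.1 FPKM in control, 20.0 to 21.1 in DCS and 22.9 to 24.3 in ACS. Over the 6 chains the median log2 fold change after ACS was -0.43, of the opposite sign to the change in the sum, most of which is Col4a1 and Col4a2.

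Col4a1 and Col4a2 lie head to head on chromosome 16, and the interval between them is shown because both genes were higher after ACS. In RefSeq's GRCr8 annotation their starts are 77 bases apart, at 84885597 on the plus strand for Col4a1 and at 84885520 on the minus strand for Col4a2. The 76 bases between these starts, chr16:84885521-84885596, are printed on the plus strand, with GC boxes (GGGCGG on either strand) in capitals.
Col4a2-Col4a1: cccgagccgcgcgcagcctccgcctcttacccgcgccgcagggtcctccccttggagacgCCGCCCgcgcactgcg
The interval held 1 GC box and was 78.9% G or C. In the deposited table, on a build it does not name, the counted gene models of the pair lie 83600 bases apart. They therefore do not both begin at this interval. Over the 9 libraries, Pearson's r between the pair's log2 CPM was 0.71, and -0.55 after each group's mean was removed. These points share libraries and depth, and the value is a description. DCS library 1 was high in Col4a2 but not in Col4a1, and DCS library 3 was the reverse.

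Among fibrillar collagens, edgeR called 2 of 10 members higher after ACS, beside 2.83% of all genes called higher. Col5a1, a chain of collagen V, which takes part in fibril assembly, had 19.97, 20.03 and 19.6 CPM in control cultures, 18.5, 18.8 and 20.5 CPM after DCS and 24.8, 26.6 and 29.7 CPM after ACS. The control libraries lay close together, the DCS libraries overlapped them, and all 3 ACS libraries were higher. Its log2 fold change after ACS was 0.44 (SE 0.08, adjusted p = 0.0193). Col11a2, a chain of collagen XI best known from cartilage, had 2.47, 4.46 and 3.38 CPM in control cultures, 5.13, 3.74 and 2.903 CPM after DCS and 6.24, 10.1 and 9.64 CPM after ACS. ACS libraries 2 and 3 were about equal and ACS library 1 was lower, yet above every control and DCS library. Its log2 fold change, 1.33 (SE 0.29, adjusted p = 0.0351), was the largest of the 6. The call of Col5a1 was lost without control library 1 (adjusted p = 0.0828) or 2 (0.0873) and without ACS library 2 (0.0687) or 3 (0.0602). That of Col11a2 was lost without control library 1 (0.124), 2 (0.0632) or 3 (0.0506), without DCS library 2 (0.0567), and without ACS library 2 (0.118) or 3 (0.0839). An entry described as similar to Col11a2 under another symbol had 12, 23 and 8 counts in control, 22, 12 and 16 in DCS and 43, 30 and 34 in ACS, so reads may be split between these entries and the level of Col11a2 is uncertain.

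The fibrillar chains that were not called had log2 fold changes on both sides of 0. Col11a1 gave 0.15 (SE 0.10), Col5a3 0.18 (SE 0.11) and Col27a1 0.47 (SE 0.29). Col5a2, which forms collagen V together with Col5a1, measured 20.7, 21.4 and 21.2 CPM in control libraries 1, 2 and 3, 16.9, 20.9 and 23.01 CPM in the DCS libraries and 17.9, 16.7 and 20.8 CPM in the ACS libraries. Its libraries overlapped, with a log2 fold change of -0.19 (SE 0.12, adjusted p = 0.391) after ACS. The major chains of interstitial collagen, Col1a1 and Col3a1, gave -0.37 (SE 0.46) and -0.48 (SE 0.47). Col24a1 had 0.168, 0.732 and 0.403 CPM in control cultures, 0.172, 0.484 and 0.474 CPM after DCS and 0.595, 1.37 and 2.05 CPM after ACS. Its ACS libraries overlapped the controls, and the log2 fold change was 1.61 (SE 0.63, adjusted p = 0.18).

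Of 9 FACIT collagens, edgeR called 1 after ACS, Col16a1, beside 2.83% of all genes called higher. DESeq2 called Col9a3 as well, beside 12% of the genes that it gave an adjusted p. Col16a1 had 21.99, 20.5 and 17.7 CPM in the control group, 25.5, 22.8 and 21.5 CPM in the DCS group and 33.7, 31.7 and 27.4 CPM in the ACS group. The ACS libraries were the 3 highest, and the DCS range overlapped the control range at its lower end. The log2 fold change was 0.63 (SE 0.11, adjusted p = 0.0163), and the adjusted p was 0.0715 without control library 2, 0.0707 without ACS library 1 and 0.0678 without ACS library 2. Col9a3, a chain of cartilage collagen IX, had 1.87, 1.405 and 1.77 CPM in the control group, 2.18, 2.59 and 1.81 CPM in the DCS group and 3.17, 3.28 and 2.24 CPM in the ACS group. Its ACS libraries exceeded the controls but overlapped the DCS libraries, with a log2 fold change of 0.78 (SE 0.23, adjusted p = 0.0861) by edgeR and an adjusted p of 0.04 by DESeq2. Col20a1 had 0.617, 0.366 and 0.496 CPM in the control group, 0.402, 0.571 and 0.503 CPM in the DCS group and 0.832, 1.52 and 0.74 CPM in the ACS group. All of its ACS libraries lay above the other 6, at 25 to 33 counts in control and 39 to 74 in ACS, and the log2 fold change was 1.06 (SE 0.40, adjusted p = 0.162). The FACIT members summed to 9.80 to 11.5 FPKM in control, 10.6 to 11.5 in DCS and 13.1 to 13.9 in ACS, of which Col16a1 and Col12a1 were the largest parts.

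**Figure D3:**
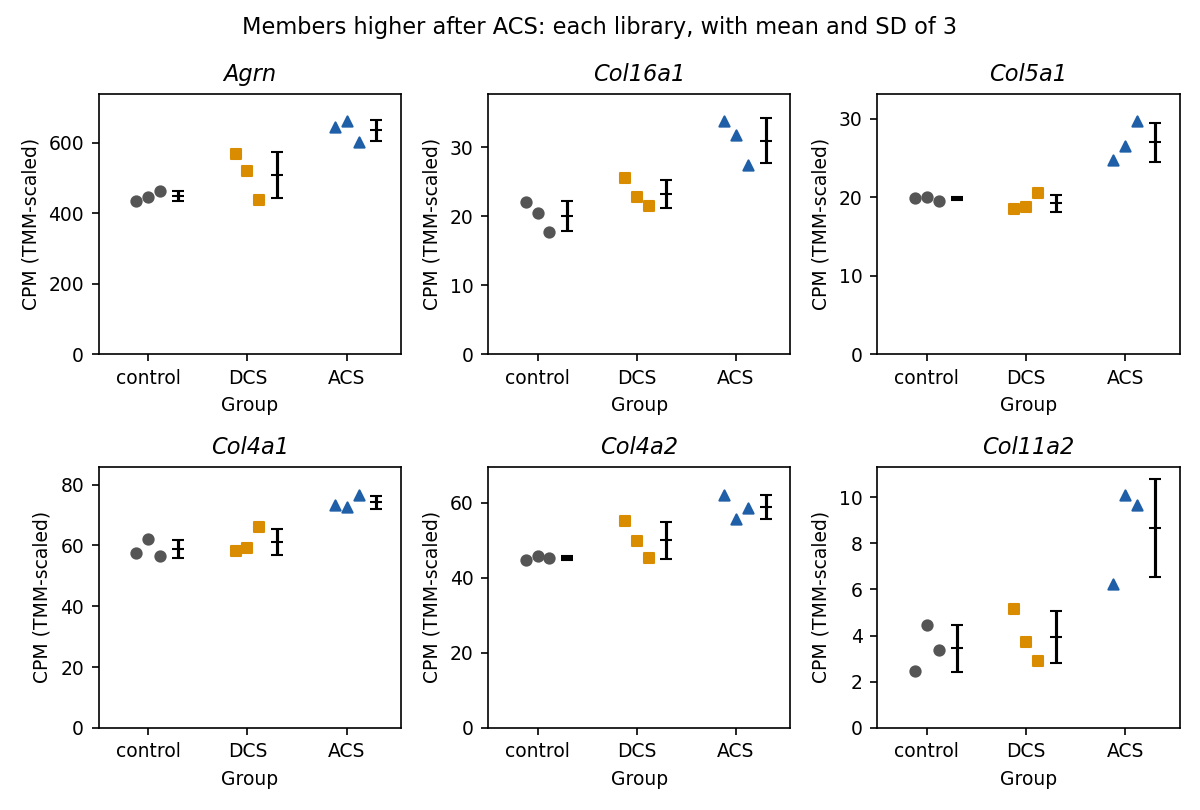
TMM-scaled CPM (linear axis from 0) of the 6 members with an adjusted p under 0.05 after ACS, 1 panel a gene, with 1 point a library and the mean and SD of the 3 libraries beside them. In every panel the 3 ACS points lie above the control and the DCS points.

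Bases before the RefSeq starts of the other 4 called genes are shown for comparison with the collagen IV interval. Each run is the 100 bases upstream of 1 annotated start on the gene's own strand in GRCr8, with GC boxes on either strand in capitals. The positions are chr5:172052826-172052925 for Agrn (minus strand), chr5:147672996-147673095 for Col16a1 (plus strand), chr3:31606780-31606879 for Col5a1 (plus strand) and chr20:4817649-4817748 for Col11a2 (minus strand).
Agrn: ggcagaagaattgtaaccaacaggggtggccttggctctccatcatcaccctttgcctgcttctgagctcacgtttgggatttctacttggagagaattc
Col16a1: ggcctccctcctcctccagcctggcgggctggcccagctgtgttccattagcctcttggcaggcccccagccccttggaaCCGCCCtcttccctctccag
Col5a1: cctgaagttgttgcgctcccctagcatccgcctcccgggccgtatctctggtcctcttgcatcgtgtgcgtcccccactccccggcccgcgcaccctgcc
Col11a2: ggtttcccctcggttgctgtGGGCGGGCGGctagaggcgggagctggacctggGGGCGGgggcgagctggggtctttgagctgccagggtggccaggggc
Within these 100 bases Col11a2 held 3 GC boxes, some of them overlapping, Col16a1 held 1, and Agrn and Col5a1 held 0. In the longer window of 250 bases before to 50 after the start, 5 of the 6 called genes held a GC box, all but Agrn. The windows of Col4a1 and Col4a2 overlap and both hold the interval printed above with its GC box, so their motif counts are not independent. Over the members with a promoter in the table, 24 of 38 held it, which was 63.2%, beside 33.1% of all 33469 promoters. Each member gave 1 promoter, whereas the 33469 were all those listed, limited neither to 1 a gene nor to tested genes. G and C content differed as well, with a median of 60% over the members and 51.7% over all promoters. The CCAAT motif was in 11 members (28.9%, beside 37.5% of all promoters), among them Col4a1 and Col4a2. TATAAA was in 1 member (2.63%, beside 14.2%). The cAMP response element TGACGTCA was in 2 members (5.26%, beside 1.83%), the AP-1 motif TGANTCA in 1 (2.63%, beside 7.33%) and the Egr motif GCGTGGGCG in 1 (2.63%, beside 0.544%). None of the 6 called genes held one of these last 4 motifs in this window. Both strands were searched, an Egr match can overlap a GC box, and a match describes letters only. No promoter was used for the other 13 members, which include Fn1, Nid2, Lamb2, Col1a1, Col2a1, Col3a1, Col6a2, Col9a3, Col12a1, Col14a1, Col22a1 and Col25a1.

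By edgeR none of the 9 laminin chains was called in any comparison, and at an unadjusted p under 0.05 there was 1, Lama2, after ACS against control and against DCS, where 10.8% and 7.22% of all genes were higher at that threshold. Lamc1, the gamma chain of most laminins, measured 66.9, 60.5 and 64.2 CPM in control libraries 1, 2 and 3, 67.7, 69.3 and 64.7 CPM in the DCS libraries and 66.3, 64.1 and 62.2 CPM in the ACS libraries. Its groups overlapped throughout, with a log2 fold change of 0.01 (SE 0.05) after ACS. Lamb1 measured 35.2, 34.9 and 38.2 CPM in control libraries 1, 2 and 3, 33.5, 36.6 and 31.6 CPM in the DCS libraries and 43.3, 37.8 and 33.9 CPM in the ACS libraries. Lamb2 measured 33.4, 34.4 and 40.5 CPM in control libraries 1, 2 and 3, 37.3, 37.2 and 34.8 CPM in the DCS libraries and 32.8, 37.4 and 36.1 CPM in the ACS libraries. Both beta chains overlapped between all groups, and their log2 fold changes after ACS were 0.09 (SE 0.09) and -0.03 (SE 0.08). Lama5, the broadly expressed alpha chain of basement membranes, measured 23.3, 27.1 and 27.8 CPM in the control group, 29.96, 30.4 and 27.8 CPM in the DCS group and 28.8, 31.01 and 26.4 CPM in the ACS group. Control library 1 was the lowest, and the remaining libraries were mixed, with a log2 fold change of 0.14 (SE 0.09, adjusted p = 0.402).

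The lower alpha chains were measured with few counts. Lama4, the vascular alpha chain, had 5.55, 6.66 and 7.88 CPM in control cultures, 6.51, 5.69 and 8.03 CPM after DCS and 6.005, 8.09 and 8.03 CPM after ACS. Lama1, the early embryonic alpha chain, had 2.94, 4.52 and 3.99 CPM in control cultures, 2.66, 3.06 and 3.51 CPM after DCS and 4.08, 2.38 and 3.45 CPM after ACS. In both, all groups overlapped. Lama2, whose loss causes a congenital muscular dystrophy, had 1.27, 2.02 and 1.44 CPM in control cultures, 1.84, 1.38 and 1.82 CPM after DCS and 2.46, 2.52 and 2.56 CPM after ACS. Its ACS libraries were nearly equal and lay above all others, with 124, 123 and 135 counts against 68 to 138 in control, and the log2 fold change was 0.67 (SE 0.23, adjusted p = 0.127). An entry described as laminin alpha 3 under another symbol had 69, 60 and 44 counts in control, 53, 59 and 100 in DCS and 85, 139 and 111 in ACS.

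Nidogens and fibronectin were not called by edgeR after ACS. Nid1 had 179, 173 and 162 CPM in the control group, 182, 171 and 160.4 CPM in the DCS group and 160.2, 171 and 151 CPM in the ACS group. The groups overlapped, with a log2 fold change of -0.09 (SE 0.06). Nid2 had 15.99, 14.6 and 15.04 CPM in the control group, 19.9, 18.4 and 13.8 CPM in the DCS group and 18.8, 20.3 and 20.2 CPM in the ACS group. Its ACS libraries lay above the controls, DCS library 1 lay within the ACS range, DCS library 2 just under it, and DCS library 3 was the lowest of all 9. The log2 fold change of Nid2 was 0.38 (SE 0.12, adjusted p = 0.119). Its adjusted p was 0.0363 by DESeq2, and by edgeR 0.0327 without DCS library 3. Fn1, a large adhesive glycoprotein bound by integrins, had 130.3, 129.5 and 138 CPM in the control group, 126, 120.2 and 142 CPM in the DCS group and 121, 124 and 126 CPM in the ACS group. Each ACS library was below each control library, and the log2 fold change was -0.10 (SE 0.06, adjusted p = 0.387). These are among the most deeply counted members, and the SEs of Nid1, Fn1, Lamc1 and Lamb2 were 0.06, 0.06, 0.05 and 0.08.

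The multiplexins Col15a1 and Col18a1 are basement membrane collagens with heparan or chondroitin sulfate chains. Col18a1, the source of endostatin, had 2.24, 3.09 and 1.92 CPM in control cultures, 2.62, 2.27 and 2.76 CPM after DCS and 2.26, 2.46 and 2.01 CPM after ACS, and its groups overlapped. Col15a1 had 0.2805, 0.0439 and 0.233 CPM in control cultures, 1.36, 1.37 and 0.647 CPM after DCS and 0.892, 0.512 and 0.778 CPM after ACS. Every DCS and every ACS library exceeded every control library. These values rest on 15, 3 and 15 counts in control, 71, 79 and 45 in DCS and 45, 25 and 41 in ACS. A library floor of 12 counts stands for 3 fragments here, because a fragment can add about 4 to an estimated count. The log2 fold change of Col15a1 was 1.98 (SE 0.60, adjusted p = 0.0998) after ACS and 2.60 (SE 0.61, adjusted p = 0.692) after DCS. An entry described as Col15a1-like under another symbol had 10, 32 and 11 counts in control, 4, 0 and 36 in DCS and 27, 31 and 12 in ACS, and reads may be split between the entries.

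Collagen VI forms beaded microfilaments around many cells, and by edgeR 0 of its 5 chains were called after ACS, with 1, Col6a6, higher at an unadjusted p under 0.05, beside 10.8% of all genes. Col6a6, an alternative chain of collagen VI, had 0.654, 0.527 and 1.13 CPM in the control group, 1.63, 1.37 and 0.876 CPM in the DCS group and 1.64, 1.68 and 1.499 CPM in the ACS group. The ACS libraries lay together at 79 to 83 counts and above the controls, of which control library 3 lay within the DCS range. Its log2 fold change was 1.06 (SE 0.34, adjusted p = 0.116) after ACS, 0.74 (SE 0.34, adjusted p = 0.695) after DCS, and its adjusted p after ACS was 0.0339 without control library 3. Col6a1 and Col6a2, the chains present in every collagen VI molecule, gave log2 fold changes of 0.06 (SE 0.21) and 0.15 (SE 0.24) after ACS. An entry described as collagen VI alpha 3 under another symbol had 49, 172 and 181 counts in control, 80, 106 and 142 in DCS and 77, 55 and 144 in ACS, and these groups overlapped.

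Further members, none of them called after ACS, had the following values. Col12a1, the second most abundant FACIT chain, had a log2 fold change of 0.13 (SE 0.10), Col19a1 0.17 (SE 0.20) and Col14a1 -0.06 (SE 0.22). The chains that join Col9a3 in collagen IX went to opposite sides of 0, at -0.49 (SE 0.56) for Col9a1 and 0.56 (SE 0.31) for Col9a2. Lamb3, an epithelial laminin chain, gave 0.23 (SE 1.00), and Col2a1, the main cartilage collagen, 0.59 (SE 0.51). Low members had wide errors. Col6a4 gave 1.65 (SE 0.76) and Col23a1, a transmembrane collagen, 0.91 (SE 0.52), and in both the ACS libraries lay above the controls. Col6a5 gave -0.05 (SE 0.55), Col25a1 -0.31 (SE 0.66) and Col26a1 0.37 (SE 0.46). Col7a1, the anchoring fibril collagen of skin, gave -0.07 (SE 0.58), Col8a1 -0.66 (SE 0.81) and Col4a4 -0.72 (SE 0.68). A count of 0 occurred in control library 3 for Col8a2, in ACS library 1 for Lamb3, in DCS library 2 and ACS library 1 for Col22a1 and in control library 1 for Col4a3, and fitted folds of such genes depend on the prior count.

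After DCS, 0 of 51 members were called against control, beside 0.0123% of all tested genes, so the background itself held only 2 calls. At an unadjusted p under 0.05 there were 2 members, Col15a1 higher and Col4a6 lower, a share of 3.92% beside 7.09% of all genes. DESeq2 called 1 member, Col15a1, with an adjusted p of 0.0158, beside 0.234% of the genes that it gave an adjusted p. Libraries did not overlap for 1 member, Col15a1, beside 11.1% of all genes. The median log2 fold change was 0.02 over the members. For the 6 genes called after ACS, the DCS values against the same control libraries were 0.18 (SE 0.08) for Agrn, 0.21 (SE 0.11) for Col16a1 and 0.14 (SE 0.07) for Col4a2. Col4a1 gave 0.06 (SE 0.06), Col5a1 -0.04 (SE 0.08) and Col11a2 0.19 (SE 0.28). Both comparisons share their control libraries. None of the 6 passed the test after DCS, which does not show that DCS left them at the control level.

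ACS was also set directly against DCS. Of the 51 members 1, Col5a1, was called, with a log2 fold change of 0.49 (SE 0.08, adjusted p = 0.0372), beside 0.633% of all tested genes. That call was made again only without control library 3 (0.0374) among the leave-one-out fits, and the adjusted p was 0.0715 and 0.0764 without control libraries 1 and 2, 0.112, 0.157 and 0.054 without DCS libraries 1 to 3, and 0.0556, 0.131 and 0.111 without ACS libraries 1 to 3. At an unadjusted p under 0.05 there were 11 members, all higher after ACS, beside 7.22% of all genes. They included all 6 genes called against control. DESeq2 called 5 of these 6 against DCS, all but Col4a2, beside 4.85% of the genes that it gave an adjusted p. Limma called 0 members with either pseudocount, beside 0.432% of all genes with 1 and 0.361% with 0.1. The log2 fold change of ACS against DCS was 0.28 (SE 0.06, adjusted p = 0.0798) for Col4a1, 1.14 (SE 0.29, adjusted p = 0.112) for Col11a2 and 0.32 (SE 0.08, adjusted p = 0.117) for Agrn. It was 0.41 (SE 0.11, adjusted p = 0.125) for Col16a1 and 0.23 (SE 0.07, adjusted p = 0.191) for Col4a2. Less abundant members were Col24a1 with 1.81 (SE 0.64, adjusted p = 0.24), Col20a1 with 1.06 (SE 0.40, adjusted p = 0.274) and Lama2 with 0.58 (SE 0.22, adjusted p = 0.294). The ACS and DCS libraries did not overlap for 12 members, 11 of them higher after ACS, beside 21.4% of all genes in either direction and 11.2% higher. The member that was lower was Col25a1, a transmembrane collagen of neurons, with 28, 43 and 26 counts in DCS and 7, 13 and 11 in ACS. Its control libraries had 4, 18 and 27 counts, and some of these values lie under the floor of 12 counts. An entry described as Col25a1-like had 4, 19 and 9 counts in control, 12, 8 and 14 in DCS and 21, 8 and 16 in ACS. Reads may be split between the entries. Col5a3 had 11.6, 13.5 and 15.3 CPM in control libraries 1, 2 and 3, 13.3, 12.1 and 13.1 CPM in the DCS libraries and 14.9, 15.5 and 15.5 CPM in the ACS libraries. Its ACS libraries lay above the DCS libraries but overlapped the controls, and the log2 fold change of ACS against DCS was 0.25 (SE 0.11, adjusted p = 0.332). The median over the members was 0.13, beside -0.002 over all genes.

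Some members had single libraries far above the rest of their group. Col1a1 had 3.91, 5.695 and 2.06 CPM in control libraries 1, 2 and 3, 2.97, 1.83 and 6.67 CPM in the DCS libraries and 2.91, 2.66 and 3.45 CPM in the ACS libraries, and Col3a1 had 2.04, 4.24 and 1.57 CPM in control libraries 1, 2 and 3, 2.76, 1.73 and 5.04 CPM in the DCS libraries and 1.23, 2.46 and 1.95 CPM in the ACS libraries. Both were highest in DCS library 3 and control library 2, and Pearson's r of log2 CPM over the 9 libraries was 0.80. An entry described as Col1a2 under another symbol was also highest there, with 143 counts in DCS library 3 and 126 in control library 2 against 13 to 63 elsewhere. Fibroblast markers summed to 17.2 FPKM in DCS library 3, the highest of all 9, and to 11.9 FPKM in control library 2, the lowest control value, and their part in this was not tested. Col4a3 and Col4a4, a second head-to-head pair of collagen IV genes, were highest in DCS library 3 and control library 3. Col4a4 had 1.23, 2.33 and 3.94 CPM in the control group, 0.709, 1.04 and 4.598 CPM in the DCS group and 0.912, 1.49 and 2.14 CPM in the ACS group, so that DCS library 3 and control library 3 stood above the rest. Col4a3 had 85 counts in DCS library 3 and 84 in control library 3 against 0 to 15 in the other 7, and r between the pair was 0.81. Col6a1 and Col6a2, neighbours on chromosome 20, varied together with r = 0.90, while Col3a1 and Col5a2, neighbours on chromosome 9, had r = 0.32. These correlations describe 9 libraries that share depth and preparation.

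**Figure D4:**
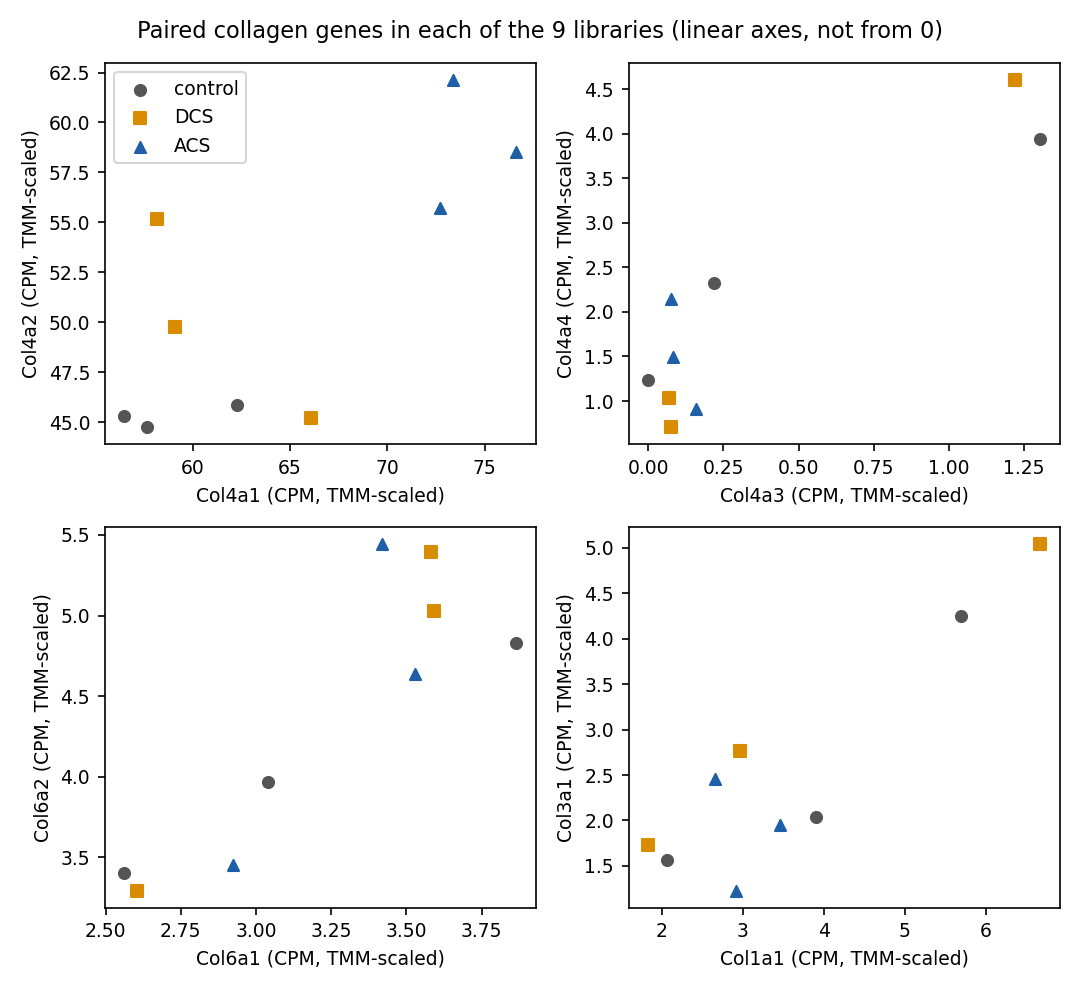
TMM-scaled CPM of 4 pairs of collagen genes in each of the 9 libraries, with circles for control, squares for DCS and triangles for ACS (linear axes that do not start at 0). ACS libraries form the upper right group for Col4a1 and Col4a2, whereas for Col4a3 and Col4a4 a single control and a single DCS library stand apart.

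Genes that make, process or bind the matrix were counted from 4 lists. None of 26 tested matrix receptors, among them integrins, syndecans and dystroglycan, was called after ACS, with a median log2 fold change of -0.04, beside 4.16% of all genes called. At an unadjusted p under 0.05, 4 receptors were higher and 1 was lower, beside 10.8% and 10% of all genes. The smallest p belonged to Itgav at -0.34 (SE 0.09, adjusted p = 0.066) and Sdc3 at 0.20 (SE 0.06, adjusted p = 0.0786). Of 31 collagen biosynthesis genes, 2 rose and 1 fell, beside 4.16% of all genes called, and the median was -0.03. P3h3, a collagen prolyl 3-hydroxylase, measured 33.4, 31.96 and 38.2 CPM in control libraries 1, 2 and 3, 48.9, 41.03 and 38.7 CPM in the DCS libraries and 68.4, 74.02 and 68.6 CPM in the ACS libraries. The 3 groups did not overlap, with control lowest and ACS highest, though control library 3 and DCS library 3 were almost level. Its log2 fold change was 1.03 (SE 0.10, adjusted p = 0.00081) after ACS and 0.71 (SE 0.10, adjusted p = 0.011) for ACS against DCS, and after ACS it was called in all 9 leave-one-out fits. The ACS to DCS call was lost without DCS library 2 (0.0773), ACS library 1 (0.0529) or ACS library 2 (0.0682). Bmp1, the procollagen C-proteinase, had a log2 fold change of 0.34 (SE 0.07, adjusted p = 0.0371) after ACS. P4ha1, an alpha subunit of prolyl 4-hydroxylase, fell after ACS with -0.30 (SE 0.06, adjusted p = 0.0287). Serpinh1, the collagen chaperone, gave -0.22 (SE 0.07, adjusted p = 0.122).

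Among 36 other basement membrane and matrix genes, 1 rose after ACS, beside 2.83% of all genes. It was Eln (elastin), with 0.92 (SE 0.19, adjusted p = 0.0318), and the median of the list was 0.09. Tnc gave -0.21 (SE 0.06, adjusted p = 0.0693) and Bcan 0.16 (SE 0.05, adjusted p = 0.114). Of 21 genes of TGF-beta signalling, a pathway known to raise collagen transcription, 1 rose after ACS, again beside 2.83% of all genes. It was Ltbp3, with 0.40 (SE 0.09, adjusted p = 0.0489). Tgfb2 gave 0.27 (SE 0.07, adjusted p = 0.0532) against control and was higher after ACS than after DCS at 0.38 (SE 0.07, adjusted p = 0.0449). After DCS edgeR called 0 genes of these 4 lists, and at an unadjusted p under 0.05 collagen biosynthesis had 2 higher and 1 lower, TGF-beta signalling 1 each way and the receptors 1 lower, beside 7.09% of all genes in either direction. The calls of Eln, Bmp1, Ltbp3 and, for ACS against DCS, Tgfb2 were not made by limma with either pseudocount. Most of the calls in these lists were lost in some fits that left out 1 library, and such fits also rest on fewer libraries. Among the 9 such fits, the difference of Tgfb2 between ACS and DCS passed the threshold only without control library 2 or 3. Its adjusted p was up to 0.182 in the others. Eln was not called without control library 1 (0.121) or 2 (0.0996) or ACS library 1 (0.114) or 2 (0.102). Bmp1 was not called without control library 1 (0.134) or 2 (0.107), DCS library 1 (0.0528) or 2 (0.0603), or ACS library 1 (0.131) or 2 (0.121). P4ha1 was not called without control library 1 (0.116) or 2 (0.102), DCS library 2 (0.053), or ACS library 1 (0.0987), 2 (0.106) or 3 (0.0675). Ltbp3 was not called without control library 1 (0.164) or 2 (0.167), DCS library 2 (0.0782), or ACS library 1 (0.119), 2 (0.144) or 3 (0.109).

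By the pathway labels in the table, 25 members belonged to PI3K-Akt signalling, and these labels were looked at after the values were seen. Of 291 tested genes of that pathway 12 were called after ACS, which is 4.12%, beside 4.16% of all genes. The 12 included Col4a1 and Col4a2, and 10 of the 266 that are not members. Of 72 tested genes labelled ECM-receptor interaction, 26 of them members, 4 were called, which is 5.56%, beside 4.16% of all genes. They were the members Agrn, Col4a1 and Col4a2, and Thbs3, which was the only 1 called of the 46 that are not members.

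Some marker lists differed between control and ACS, and markers named here beyond the 3 most abundant of a list were chosen after their values were seen. Mural markers summed to 12.8 to 13.6 FPKM in control and 14.6 to 17.8 in ACS, with 0 of 6 tested entries called, 1 at an unadjusted p under 0.05, and Pdgfrb at a log2 fold change of 0.56 (SE 0.17, adjusted p = 0.089). Fibroblast markers moved the other way, from 11.9 to 13.8 FPKM in control to 9.93 to 11.0 in ACS, with 0 of 6 called by edgeR and 0 at an unadjusted p under 0.05. Endothelial sums overlapped, at 0.968 to 1.43 FPKM in control and 1.06 to 1.72 in ACS. Astrocyte sums overlapped, at 277 to 286 FPKM in control and 227 to 308 in ACS, and 1 of 8, Gfap, rose with 0.25 (SE 0.05, adjusted p = 0.0281). ACS library 1 had 53.5 FPKM of Slc1a3 against 113 to 126 in the other 8 libraries. Oligodendrocyte sums overlapped, at 188 to 217 FPKM in control and 187 to 204 in ACS. Microglial markers summed to 50.1 to 53.1 FPKM in control and 53.6 to 55.3 in ACS. Of 8 microglial markers 5 lay above 0 and 1 was called, C1qa, at 0.76 (SE 0.15, adjusted p = 0.0252). Progenitor markers summed to 286 to 298 FPKM in control and 249 to 267 in ACS. Of 8 progenitor markers 3 lay above 0 and 3 fell, Hes5, Mki67 and Vim. Over all 16284 tested genes 217 fell, and 4.16% were called in either direction. Sums of the neuron list, general and excitatory markers together, were 1484 to 1642 FPKM in control and 1649 to 1719 in ACS. Of its 10 genes 7 lay above 0 and 1 was called, the general marker Rbfox3, at 0.43 (SE 0.06, adjusted p = 0.0081). Interneuron sums overlapped, at 229 to 271 FPKM in control and 261 to 273 in ACS, and so did ependymal and choroid plexus sums, at 3.27 to 10.2 and 4.23 to 4.90. The part of these shifts in the collagen and agrin differences was not tested.

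In the deposited table the 6 called genes are placed on a build that it does not name. Agrn is at chr5:173589819-173622645, minus strand, ENSRNOG00000020205. Col16a1 is at chr5:148257642-148311645, plus strand, ENSRNOG00000031475. Col5a1 is at chr3:6430201-6578882, plus strand, ENSRNOG00000008749. Col4a1 is at chr16:83522162-83632153, plus strand, ENSRNOG00000016281, and Col4a2 at chr16:83387364-83438561, minus strand, ENSRNOG00000023972. Col11a2 is at chr20:3830164-3859018, plus strand, ENSRNOG00000000463, whereas RefSeq's GRCr8 has it on the minus strand. The values count reads over each gene's whole transcript model, so no exon or untranslated region is singled out. Other entries overlapping a member had few counts. Fam229b, on the strand opposite Lama4, averaged 44 counts, and every other overlapping entry averaged 3 or fewer.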

How the data were processed

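Poly(A) RNA of 9 libraries (3 control, 3 DCS, 3 ACS) was sequenced by the authors as paired 150-base reads, aligned with HISAT2 2.0.4 and quantified with StringTie 1.3.4d, and cutadapt 1.9 is also listed in the submitters' processing notes. The study's text names a human build for the rat alignment, and the deposited table names none. Per the labels, second strands carried uracil, and whether counting used strand is not given in the sources used here. The authors deposited 1 table with an FPKM value and an estimated count per gene and library. The estimated counts were whole numbers, and 34.1% of those from 1 to 15 were multiples of 4, against 20% if even.

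Counts were fitted with edgeR 4.0.16 in R 4.3.3 (TMM scaling, filterByExpr minima of 10 counts and 15 in total, quasi-likelihood F test over all 9 libraries with group as the only term). Benjamini-Hochberg adjustment covered all 16284 tested genes, and an adjusted p under 0.05 was a call. SE is the log2 fold change divided by the square root of F. CPM values are the deposited counts scaled by TMM. Alternatives were DESeq2 1.42.0, limma 3.58.1 on log2(FPKM + 1) and log2(FPKM + 0.1), median-of-ratios scaling, other filters, counts divided by 4, a replicate block, the 6 libraries of a comparison alone and each library left out. Per-library values were given for called members, for up to 10 members a comparison whose libraries did not overlap, for the 10 most abundant, for core basement membrane members and for Col6a6. The values of 1 member are not reported here. Members and lists were chosen with earlier results of these data known. Promoters were RefSeq sequences of GRCr8, matched by symbol for 38 of 51 members, and protein sequences were not analysed here. Counting error alone underlies the floor of 12 counts (3 fragments).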

Additional observations from a re-analysis of the deposited data

How the results depend on the processing

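After ACS, 6 members were called, and 8 were called by DESeq2, 3 by limma with either pseudocount and 0 to 7 when each library was left out in turn. The lowest count came without ACS library 2, and 1 was called without control library 1 or 2, 2 without ACS library 1 or 3 and 7 without DCS library 3. Calls over all genes moved too, from 678 to 1652 with DESeq2 and to between 138 and 1431 with a library left out. With DESeq2 they also went from 2 to 38 after DCS and from 103 to 650 for ACS against DCS. The members' median log2 fold change after ACS was 0.0816 by limma with a pseudocount of 1 and 0.0842 to 0.2073 with a library left out, beside 0.15. After DCS, DESeq2 called 1 member, Col15a1, and the median, 0.02, ran from -0.0184 to 0.1394 with a library left out. Against DCS, the single ACS call became 5 with DESeq2, 0 by limma with either pseudocount, 0 with the 6 libraries alone and 0 to 1 with a library left out. The median of that comparison was 0.0559 by limma with a pseudocount of 1, 0.1763 with the 6 libraries alone and 0.062 to 0.245 with a library left out, beside 0.13. Of the values of single genes under these alternatives, 492 kept direction and side of the threshold, 91 lost a call, 9 gained one and 0 changed sign. Many of the 492 belong to members at an unadjusted p under 0.05 that were not called in the main fit. Such members had no call to lose, so 91 beside 492 understates how often a call was lost. The causes were not tested. Genes under about 12 counts a library could not be measured well at this depth.

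No pairing by replicate number was seen: deviations from the group means correlated between same-numbered libraries at -0.048 to 0.072. These values do not show how the cultures were prepared. With a replicate block, 5 members were called after ACS, 0 after DCS and 0 for ACS against DCS, and 475 genes in all after ACS. The calls not made with the block were those of Col11a2 (adjusted p = 0.0564), Eln (0.0573), Bmp1 (0.0639) and Ltbp3 (0.0887) after ACS, and of Col5a1 and Tgfb2 (both 0.0501) for ACS against DCS. Ltbp3 was also not called with no filter (0.0557), and Bmp1 with the 6 libraries alone (0.0608).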
